A study of Danio rerio with 20 samples.

Results

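Zebrafish larvae exposed to ifosfamide at 1 µg/L were compared with larvae of the group named ERM by RNA sequencing, with 4 libraries in each group. FPKM here counts fragments per kilobase of gene length, with each library scaled by a median-of-ratios size factor. A gene model entered the comparison where its mean FPKM over these 8 libraries was at least 1. This held for 19802 of the 38718 gene models in the table. The gene model just inside this limit averaged 1.212 FPKM in ifosfamide larvae and 0.7883 FPKM in ERM larvae, and the one just outside it 1.154 FPKM in ifosfamide larvae and 0.8457 FPKM in ERM larvae; neither has a gene symbol. Of the 19802, 15874 were protein coding and 3307 had no Ensembl identifier. The series holds 20 libraries in 5 groups, the other 3 being ifosfamide at 100 µg/L and the serotonin reuptake inhibitor citalopram at 10 and 1000 µg/L. The labels give larvae as the tissue for every group. Each treatment had 5 beakers, of which 4 were sequenced, and a letter in the title marks the library: A, B, C and D for ifosfamide at 1 µg/L, and A, B, C and E for ERM. What ERM stands for is not explained in the labels, whose treatment field for this group holds the concentration 1 µg/L and names no drug. ERM was taken as the reference because it comes ahead of the drug doses in the design text. Strain, age of the larvae, length of exposure and number of larvae per library are not stated in the labels.

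Ifosfamide is an anticancer prodrug of the oxazaphosphorine class. Cytochrome P450 enzymes of the liver hydroxylate its ring, and the product breaks down to a mustard that alkylates DNA and crosslinks its strands, which cells answer through nucleotide excision and crosslink repair, cell cycle arrest and apoptosis. Oxidation of the side chain gives chloroacetaldehyde, which is held responsible for much of the damage to kidney and nervous system in patients, and aldehyde dehydrogenases and glutathione take part in the removal of both kinds of product. The comparison asked which transcripts differed in larvae exposed to the lower of the doses.

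Depth, as reads recovered from the FPKM values, was 11124293 to 13590750 per ifosfamide library and 12049087 to 13897657 per ERM library. The 100 most abundant gene models took 29.73 to 31.52% of the reads in ifosfamide libraries and 33.0 to 36.41% in ERM libraries, without overlap. Of 49 markers listed for the main tissues and cell types of a larva, 47 were found in the table by symbol and 38 reached 1 FPKM in all 8 libraries. Among the others, the fast muscle light chain gene mylpfa was at 0 to 0.105 FPKM in ifosfamide libraries and at 0.0467 to 0.304 FPKM in ERM libraries, while the muscle actin gene actc1b was at 6003.7 to 9727.3 FPKM in ifosfamide libraries and 8377.2 to 12302.2 FPKM in ERM libraries. ERM library B stood apart within its group. Its correlation of log2(FPKM + 1) with ifosfamide libraries A, B and C was 0.966 to 0.968, and 0.954 with D. With the other 3 ERM libraries it was 0.956 to 0.960, and those 3 correlated with each other by 0.974 to 0.978. Closeness to ifosfamide libraries was not particular to ERM B. ERM C correlated with ifosfamide A and C by 0.970 each. Ifosfamide A correlated with ERM libraries by 0.967 to 0.970, more than with ifosfamide B (0.952) or D (0.958). With ifosfamide B, the ERM libraries other than B correlated by 0.9335 to 0.9431. Among the ifosfamide libraries, B with D and A with B correlated less than ERM B did with its group, and the pairs that held C correlated more. Correlations between ifosfamide libraries ran from 0.943 (B with D) and 0.952 (A with B) to 0.971 (A with C). Deviations also followed gene length. The median log2 change was -0.08 in the shortest 10% of gene models (15 to 873 bases) and 0.13 in the longest 10% (6087 to 98586 bases). In the longest 10%, ERM library B lay at 0.07, among the ifosfamide libraries at -0.0049 to 0.13, and the other 3 ERM libraries lay at -0.11 to -0.08. Several list medians are given also after a correction for gene length, and the part of the read share of the most abundant gene models in the results was not tested. In bulk RNA from larvae, fewer cells of a type and less RNA per cell cannot be told apart.

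**Figure D1:**
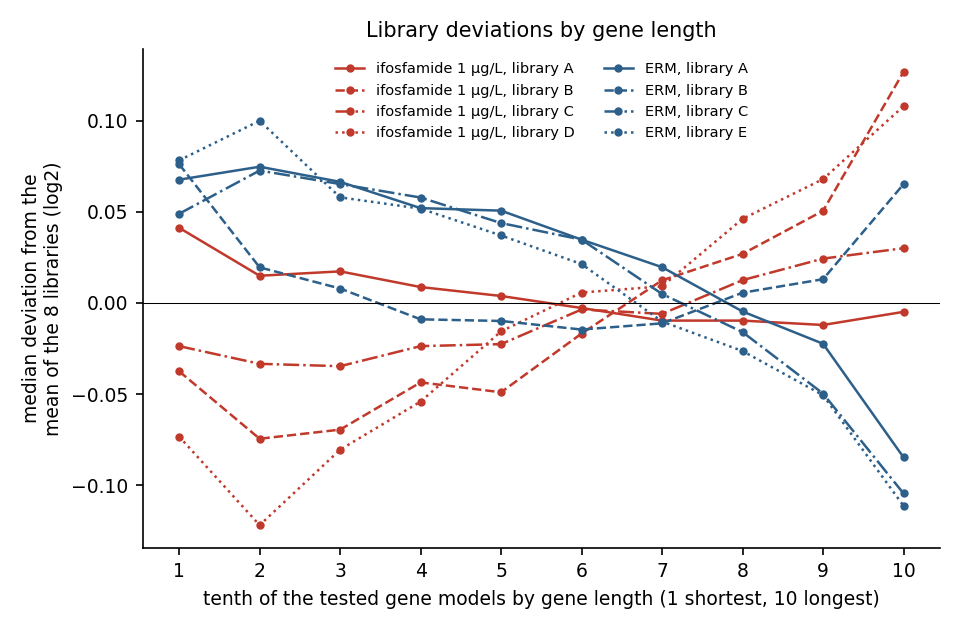
Median deviation of each library from the mean of the 8 libraries (log2 of FPKM + 1, vertical axis) in 10 equal parts of the 19802 gene models ordered by gene length (horizontal axis), with ifosfamide 1 µg/L in red and ERM in blue and 1 line per library. In the longest 10% ifosfamide B reached 0.13 and ERM E was at -0.11, while ERM B at 0.07 lay between ifosfamide C at 0.03 and ifosfamide D at 0.11.

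No gene model passed an adjusted p of 0.05 (limma on log2(FPKM + 1), two-sided, Benjamini-Hochberg adjustment over all 19802): 0 were called, or 0% of those tested. The smallest adjusted p was 0.123. An unadjusted p under 0.05 was reached by 2906 gene models (14.7%), 1172 higher and 1734 lower in ifosfamide larvae. In 946 gene models (4.78%) all 4 ifosfamide libraries lay below all 4 ERM libraries, and in 433 (2.19%) all 4 lay above. Both shares followed gene length. Of gene models of 874 to 1305 bases 7.77% were lower and 0.909% higher without overlap, against 0.959% and 3.69% of the longest 10%. The 4.78% and 2.19% set beside the gene lists below are not matched for length. The balance of lower and higher counts rests on the scaling. With each library scaled to its total of recovered reads, the median over all gene models moved from -0.01 to 0.13, and the counts without overlap became 354 lower and 1294 higher. The medians of the 39 gene lists described below moved up by 0.10 to 0.18 under that scaling, against 0.14 over all gene models. By library, all 4 ifosfamide medians lay below all 4 ERM medians in 8 of the 39 lists, above them in 0, and the groups overlapped in 31. A log2 change of at least 1 in size was seen in 88 gene models, 39 lower and 49 higher. Weighting the libraries by their own spread (limma array weights) called 107 gene models, 25 higher and 82 lower. Ifosfamide C weighed 2.780 there, against 0.867, 0.607 and 0.545 for ifosfamide A, B and D, so the ifosfamide side of these calls leans on library C. The ERM weights ran from 0.451 (B) to 1.598 (E). Leaving out ERM library B called 106, 66 higher and 40 lower, and leaving out ifosfamide library A called 1. The calls under array weights and without ERM B had 40 gene models in common, 36 lower and 4 higher in ifosfamide larvae. Both settings reduce the part of ERM B, so calls under both are not independent of each other. Without ERM B the smallest limma adjusted p was 0.0479, close to the threshold of 0.05. Leaving out both libraries lettered B called 0, with a smallest limma adjusted p of 0.0663.

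**Figure D2:**
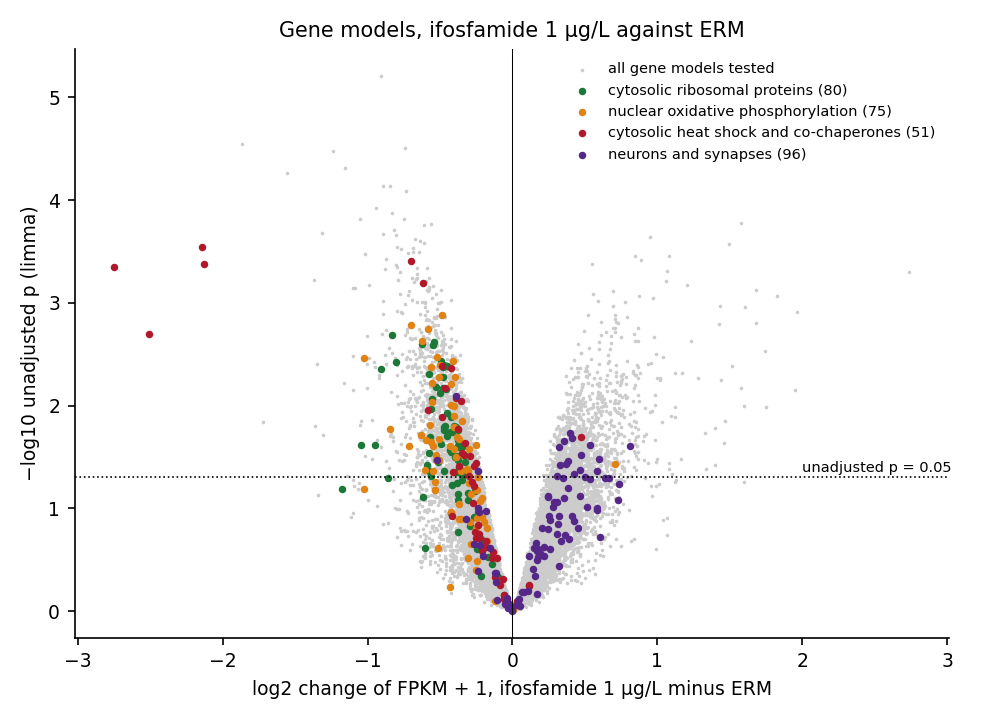
Log2 change of FPKM + 1, ifosfamide 1 µg/L minus ERM (horizontal axis), against -log10 of the unadjusted limma p (vertical axis) for 19802 gene models in grey, with 4 gene lists coloured. The 80 cytosolic ribosomal protein genes all lie left of 0, 70 of 96 neuron and synapse genes lie right of it, and 4 heat shock genes stand farthest left among the coloured points, between -2.75 and -2.13.

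The 4 hsp70 genes had the largest log2 changes among the genes described. They code for HSP70 chaperones, which refold damaged proteins and are switched on by heat shock factor. The gene hsp70l (ENSDARG00000055723, chromosome 8, 4798158 to 4800911, GRCz11) had 1.52, 0.70, 0.72 and 1.18 FPKM in ifosfamide libraries A to D, against 3.19, 12.6, 5.12 and 16.4 FPKM in ERM libraries A, B, C and E. All 4 ifosfamide libraries lay below the lowest ERM library, and the ERM libraries themselves spread over a wide range, with B and E high. The log2 change was -2.14 (SE 0.40, 95% interval from -3.02 to -1.26, limma adjusted p = 0.197).

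The 3 neighbouring copies on chromosome 3 (26112780 to 26127091), hsp70.1, hsp70.2 and hsp70.3, were likewise lower on average. For hsp70.3 (ENSDARG00000021924) the values were 1.71, 1.61, 1.204 and 0.949 FPKM in ifosfamide libraries and 3.87, 27.7, 10.15 and 38.7 FPKM in ERM libraries. Its log2 change was -2.75 (SE 0.54, limma adjusted p = 0.201). Means of hsp70.1 were 0.439 ± 0.128 FPKM in ifosfamide larvae and 6.51 ± 4.86 FPKM in ERM larvae (SD, n = 4 each), without overlap. Means of hsp70.2 were 1.26 ± 0.755 FPKM in ifosfamide and 16.4 ± 13.5 FPKM in ERM larvae, and its groups overlapped, since ifosfamide A at 2.37 FPKM lay above ERM A at 2.27 FPKM. These copies are near-identical, so reads may have been split among them by the authors' counting. In every one of the 4 genes ERM A was the lowest ERM library and ERM E the highest.

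The inducible cytosolic HSP90 gene hsp90aa1.2 (ENSDARG00000024746, chromosome 20) had 11.9, 12.8, 13.9 and 12.5 FPKM in ifosfamide libraries, against 16.7, 21.3, 22.1 and 25.98 FPKM in ERM libraries. The groups did not overlap, and the log2 change was -0.70 (SE 0.14, 95% interval from -0.998 to -0.398, limma adjusted p = 0.201). The small heat shock protein gene hspb1, whose product guards actin and other filaments, averaged 3.25 ± 0.507 FPKM in ifosfamide larvae and 5.50 ± 0.553 FPKM in ERM larvae, also without overlap. The constitutive chaperones were closer. The main cytosolic HSP90 gene hsp90ab1 averaged 993 ± 90.2 FPKM in ifosfamide and 1207 ± 171 FPKM in ERM larvae, and cct4, a subunit of the chaperonin that folds actin and tubulin, 315 ± 20.3 FPKM in ifosfamide and 391.7 ± 59.8 FPKM in ERM larvae, with overlapping groups in both. Of the 51 tested chaperone and co-chaperone genes, 46 had a negative log2 change and 12 were lower without overlap, against 4.78% of all gene models, while 0 were higher without overlap. The list's median was -0.27, against -0.01 over all gene models, -0.25 after the length correction and -0.10 with scaling to total reads.

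**Figure D3:**
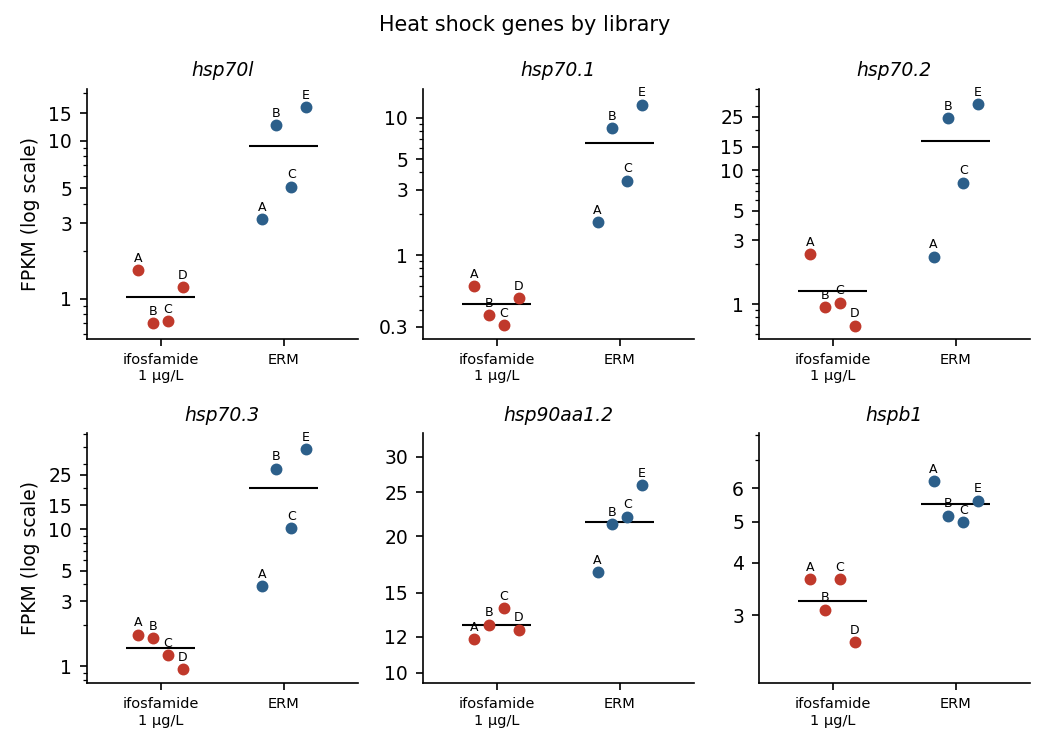
FPKM of 6 heat shock genes in each library (log scale, letters name the libraries), with ifosfamide 1 µg/L on the left and ERM on the right and a bar at each group's mean. In hsp70l the ifosfamide libraries lay between 0.70 and 1.52 FPKM and the ERM libraries between 3.19 and 16.4 FPKM, and hsp70.2 is the only one of the 6 with overlapping groups.

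The cytochrome P450 gene cyp3a65 (ENSDARG00000103295, chromosome 1), a fish member of the family that oxidises many drugs in gut and liver, had 601, 507, 600 and 539 FPKM in ifosfamide libraries, against 843, 638, 718 and 747 FPKM in ERM libraries. The groups did not overlap, and the log2 change was -0.39 (SE 0.13, limma adjusted p = 0.286). The vitamin D hydroxylase gene cyp2r1 averaged 3.62 ± 0.349 FPKM in ifosfamide and 4.88 ± 0.674 FPKM in ERM larvae, also without overlap. Over 39 tested genes of P450 families 2 and 3, 15 log2 changes were positive and 24 negative, 3 genes (7.69%) were lower and 0 higher without overlap, against 4.78% and 2.19% of all gene models. The list's median gene length was 1954 bases, and of all gene models of 1657 to 1981 bases 7.38% were lower without overlap, close to the list's share. The median log2 change was -0.06, or 0.10 with scaling to total reads.

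Among the aldehyde and glutathione enzymes, aldh7a1, an aldehyde dehydrogenase of lysine breakdown, averaged 55.1 ± 4.36 FPKM in ifosfamide larvae and 75.8 ± 9.27 FPKM in ERM larvae without overlap (log2 change -0.45, SE 0.12, limma adjusted p = 0.248). The related aldh9a1a.1 averaged 90.2 ± 20.03 FPKM in ifosfamide and 124 ± 18.4 FPKM in ERM larvae with overlap. This list of 39 tested genes had 4 lower and 0 higher without overlap, against 4.78% and 2.19% of all gene models. Its median was -0.15, and -0.0087 with scaling to total reads and -0.08 without ifosfamide B. The catalytic subunit gene of glutathione synthesis, gclc, was at 14.9, 13.7, 12.9 and 11.8 FPKM in ifosfamide libraries and at 16.02, 15.92, 15.95 and 16.22 FPKM in ERM libraries. Its ERM values hardly varied, and every ifosfamide library lay below them (log2 change -0.26, SE 0.10, limma adjusted p = 0.318).

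Among DNA damage checkpoint and apoptosis genes, the ubiquitin ligase gene mdm2 averaged 6.25 ± 0.354 FPKM in ifosfamide larvae and 6.63 ± 0.628 FPKM in ERM larvae, with a 95% interval of the log2 change from -0.31 to 0.17. The cell cycle inhibitor cdkn1a averaged 3.68 ± 0.367 FPKM in ifosfamide larvae and 4.75 ± 1.34 FPKM in ERM larvae, with an interval from -0.64 to 0.10. The groups overlapped in both genes. The proapoptotic gene bbc3 (Puma) had 8.61, 9.12, 8.64 and 11.21 FPKM in ifosfamide libraries and 8.09, 8.08, 8.44 and 6.62 FPKM in ERM libraries, higher without overlap by a narrow margin (log2 change 0.24, 95% interval from -0.04 to 0.51). The growth arrest gene gadd45ba averaged 78.5 ± 16.9 FPKM in ifosfamide and 109 ± 20.2 FPKM in ERM larvae, and foxo3b, a transcription factor of stress and apoptosis, 50.6 ± 9.56 FPKM in ifosfamide and 37.6 ± 4.75 FPKM in ERM larvae, both with overlap. Of 36 tested checkpoint and apoptosis genes, 14 log2 changes were positive and 22 negative, 1 was higher (2.78%, against 2.19% of all gene models) and 0 lower without overlap, and the median was -0.05, or 0.11 with scaling to total reads.

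In DNA repair, the damage sensor xpc of nucleotide excision repair averaged 2.998 ± 0.597 FPKM in ifosfamide larvae and 2.43 ± 0.190 FPKM in ERM larvae, and the Fanconi gene fancd2 of crosslink repair 1.71 ± 0.145 FPKM in ifosfamide and 1.81 ± 0.259 FPKM in ERM larvae. Both overlapped between the groups, with intervals of the log2 change from -0.09 to 0.51 for xpc and from -0.33 to 0.23 for fancd2. The excision repair cofactor rad23b was lower without overlap, at 87.4 ± 13.9 FPKM in ifosfamide and 113 ± 7.23 FPKM in ERM larvae, and the translesion polymerase gene rev3l was higher without overlap, at 6.95 ± 0.212 FPKM in ifosfamide and 5.37 ± 0.7997 FPKM in ERM larvae. The 95% interval of the log2 change was -0.67 to -0.09 for rad23b and 0.07 to 0.58 for rev3l. The log2 change of rev3l was 0.33, and 0.16 after the length correction. Over the 39 tested repair genes 18 changes were positive and 21 negative, with 1 higher (2.56%) and 2 lower (5.13%) without overlap, close to the 2.19% and 4.78% of all gene models, and a median of -0.03, or 0.11 with scaling to total reads. The replication and mitosis list of 32 tested genes had 8 positive and 24 negative changes, with 2 higher (6.25%, against 2.19% of all gene models) and 0 lower without overlap. Its median was -0.06, or 0.05 with scaling to total reads. When only gene models with a mean of at least 5 FPKM were kept it was -0.23, against -0.08 over all gene models so filtered. It held mcm3, a subunit of the replicative helicase, at 2.06 ± 0.0900 FPKM in ifosfamide and 1.54 ± 0.187 FPKM in ERM larvae without overlap, and the sliding clamp gene pcna at 22.01 ± 1.82 FPKM in ifosfamide and 26.2 ± 4.90 FPKM in ERM larvae with overlap.

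In redox defence, the cytosolic peroxiredoxin gene prdx1 (ENSDARG00000058734, chromosome 2) had 5.63, 4.94, 4.83 and 4.78 FPKM in ifosfamide libraries, against 7.81, 9.42, 8.32 and 11.3 FPKM in ERM libraries. The groups were well separated, with a log2 change of -0.75 (SE 0.13, 95% interval from -1.03 to -0.46, limma adjusted p = 0.197), and it was called under array weights. The peroxiredoxin of the endoplasmic reticulum, prdx4, averaged 25.4 ± 3.65 FPKM in ifosfamide and 36.8 ± 4.18 FPKM in ERM larvae and the lipid peroxide reductase gpx4a 180 ± 47.5 FPKM in ifosfamide and 252 ± 23.1 FPKM in ERM larvae, both without overlap, while prdx2, abundant in red cells, averaged 246 ± 43.0 FPKM in ifosfamide and 336 ± 54.1 FPKM in ERM larvae with overlap. Heme oxygenase hmox1a, a standard reporter of the transcription factor Nrf2, averaged 9.62 ± 2.35 FPKM in ifosfamide and 8.05 ± 3.36 FPKM in ERM larvae with overlap. Over the 46 tested Nrf2 and redox genes, 38 changes were negative, 9 were lower (19.6%, against 4.78% of all gene models) and 0 higher without overlap. The median was -0.22, -0.15 after the length correction and -0.05 with scaling to total reads. By library the groups overlapped, since ifosfamide A at -0.12 lay above ERM B at -0.13.

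The broadest pattern lay in the machinery of translation. All 80 tested cytosolic ribosomal protein genes had a negative log2 change, between -1.18 and -0.06, and 35 of them were lower without overlap, against 4.78% of all gene models. The median was -0.43, -0.37 after the length correction and -0.25 with scaling to total reads, where the median of all gene models was 0.13. By library, the list's median deviation from the ERM mean was -0.20, -0.47, -0.39 and -0.66 in ifosfamide libraries A to D, against 0.12, -0.14, -0.08 and 0.10 in ERM libraries A, B, C and E. Every ifosfamide library thus lay below every ERM library, and ifosfamide A and ERM B came closest. The stalk protein gene rplp0 averaged 4072 ± 299.7 FPKM in ifosfamide and 5312 ± 647 FPKM in ERM larvae (log2 change -0.38, SE 0.15, limma adjusted p = 0.321). The gene rps27a, which codes for ubiquitin fused to a protein of the small subunit, had 83.1, 67.6, 74.7 and 52.5 FPKM in ifosfamide libraries and 113, 103, 184 and 107 FPKM in ERM libraries. The groups were apart, and ERM C was the highest of all (log2 change -0.83, SE 0.20, limma adjusted p = 0.248). For rpl23 the means were 614 ± 52.1 FPKM in ifosfamide and 898 ± 119 FPKM in ERM larvae, also without overlap.

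Of 47 tested translation factors 44 had negative changes and 15 were lower (31.9%, against 4.78% of all gene models) and 0 higher without overlap. Their median was -0.33, and -0.15 with scaling to total reads. By library their median deviations from the ERM mean overlapped, since ifosfamide A at -0.18 lay above ERM B at -0.19. The initiation factor subunit gene eif3k averaged 152 ± 20.9 FPKM in ifosfamide and 231 ± 22.2 FPKM in ERM larvae and the translation repressor eif4ebp1, which binds the cap-binding protein, 15.6 ± 2.18 FPKM in ifosfamide and 23.8 ± 4.23 FPKM in ERM larvae, both without overlap. Of 47 tested biogenesis genes 45 had negative changes, 10 were lower (21.3%) and 0 higher without overlap, and the median was -0.28, or -0.11 with scaling to total reads. The pre-rRNA processing gene rrp7a (ENSDARG00000098934, chromosome 3, 1219344 to 1222249) is not in that list and was named for its small p. It had 14.3, 13.6, 12.9 and 12.8 FPKM in ifosfamide libraries and 26.3, 20.8, 22.04 and 23.6 FPKM in ERM libraries. Spread within both groups was small against the gap, and the log2 change was -0.75 (SE 0.11, 95% interval from -0.98 to -0.51, limma adjusted p = 0.163).

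The gene polr1d (ENSDARG00000037570, chromosome 14), which codes for a subunit shared by RNA polymerases I and III, had 1.48, 3.76, 3.07 and 1.199 FPKM in ifosfamide libraries and 6.37, 6.50, 7.18 and 8.02 FPKM in ERM libraries. Ifosfamide libraries rested on 10 to 39 recovered reads and ERM libraries on 48 to 67 (log2 change -1.32, SE 0.24, limma adjusted p = 0.197). Its means were 1.64 FPKM at ifosfamide 100 µg/L, 0.390 FPKM at citalopram 10 µg/L and 2.503 FPKM at citalopram 1000 µg/L, each below the ERM mean of 7.02 FPKM. The snoRNP gene nop10 averaged 19.8 ± 4.46 FPKM in ifosfamide and 33.4 ± 6.19 FPKM in ERM larvae without overlap, and the RNA helicase ddx21 501 ± 76.6 FPKM in ifosfamide and 666 ± 87.7 FPKM in ERM larvae with overlap. A poly(A)-binding protein gene, pabpc4 (ENSDARG00000059259, chromosome 17), had 3.79, 3.67, 5.56 and 5.41 FPKM in ifosfamide libraries, against 10.31, 7.71, 10.14 and 10.6 FPKM in ERM libraries. It was lower without overlap with -0.94 on the log2 scale (SE 0.16, limma adjusted p = 0.197). Both rrp7a and pabpc4 were called under array weights and without ERM B. Like rrp7a, pabpc4 was named for its small p and is in neither the translation factor nor the biogenesis list.

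Nuclear genes of oxidative phosphorylation, the respiratory chain and ATP synthase of mitochondria, had negative changes in 73 of 75 tested members, and 23 were lower (30.7%, against 4.78% of all gene models) and 0 higher without overlap. Their median was -0.40, -0.32 after the length correction and -0.23 with scaling to total reads. By library the groups overlapped, with -0.13, -0.50, -0.27 and -0.69 in ifosfamide libraries A to D and 0.07, -0.14, -0.03 and 0.10 in ERM libraries A, B, C and E. The ATP synthase gene atp5mc3b had 588, 545, 600.2 and 648 FPKM in ifosfamide libraries and 856, 798, 851 and 828 FPKM in ERM libraries. Neither group spread far, and the log2 change was -0.49 (SE 0.11, limma adjusted p = 0.237). The catalytic subunit atp5f1b averaged 532 ± 28.6 FPKM in ifosfamide and 715 ± 79.3 FPKM in ERM larvae, the complex I subunit ndufa6 63.0 ± 12.6 FPKM in ifosfamide and 102 ± 14.4 FPKM in ERM larvae and the cytochrome oxidase subunit cox4i1 248 ± 41.4 FPKM in ifosfamide and 325 ± 7.47 FPKM in ERM larvae, each without overlap. The 13 tested genes of the mitochondrial genome had 6 positive and 7 negative changes, 0 without overlap and a median of -0.01, or 0.16 with scaling to total reads. Its most abundant member, mt-co1, averaged 7686 ± 902 FPKM in ifosfamide and 8714 ± 654 FPKM in ERM larvae with overlap. Mitochondrial ribosomal proteins, which are coded in the nucleus, had negative changes in 62 of 64 tested genes with 11 lower (17.2%) and 0 higher without overlap. Their median was -0.27, and -0.11 with scaling to total reads and -0.18 with a block for the library letter. Among them mrpl46 averaged 3.06 ± 0.330 FPKM in ifosfamide and 5.11 ± 0.506 FPKM in ERM larvae. Of 40 proteasome genes 37 had negative changes, with 3 lower (7.5%, against 4.78% of all gene models) and 1 higher (2.5%, against 2.19%) without overlap. Their median gene length was 1515 bases, and 6.42% of all gene models of 1306 to 1656 bases were lower without overlap. The median log2 change of the proteasome genes was -0.26, or -0.10 with scaling to total reads. By library the groups overlapped, with ifosfamide A at -0.01 above ERM B at -0.21. The catalytic subunit psmb6 averaged 59.4 ± 5.42 FPKM in ifosfamide and 81.7 ± 10 FPKM in ERM larvae.

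**Figure D4:**
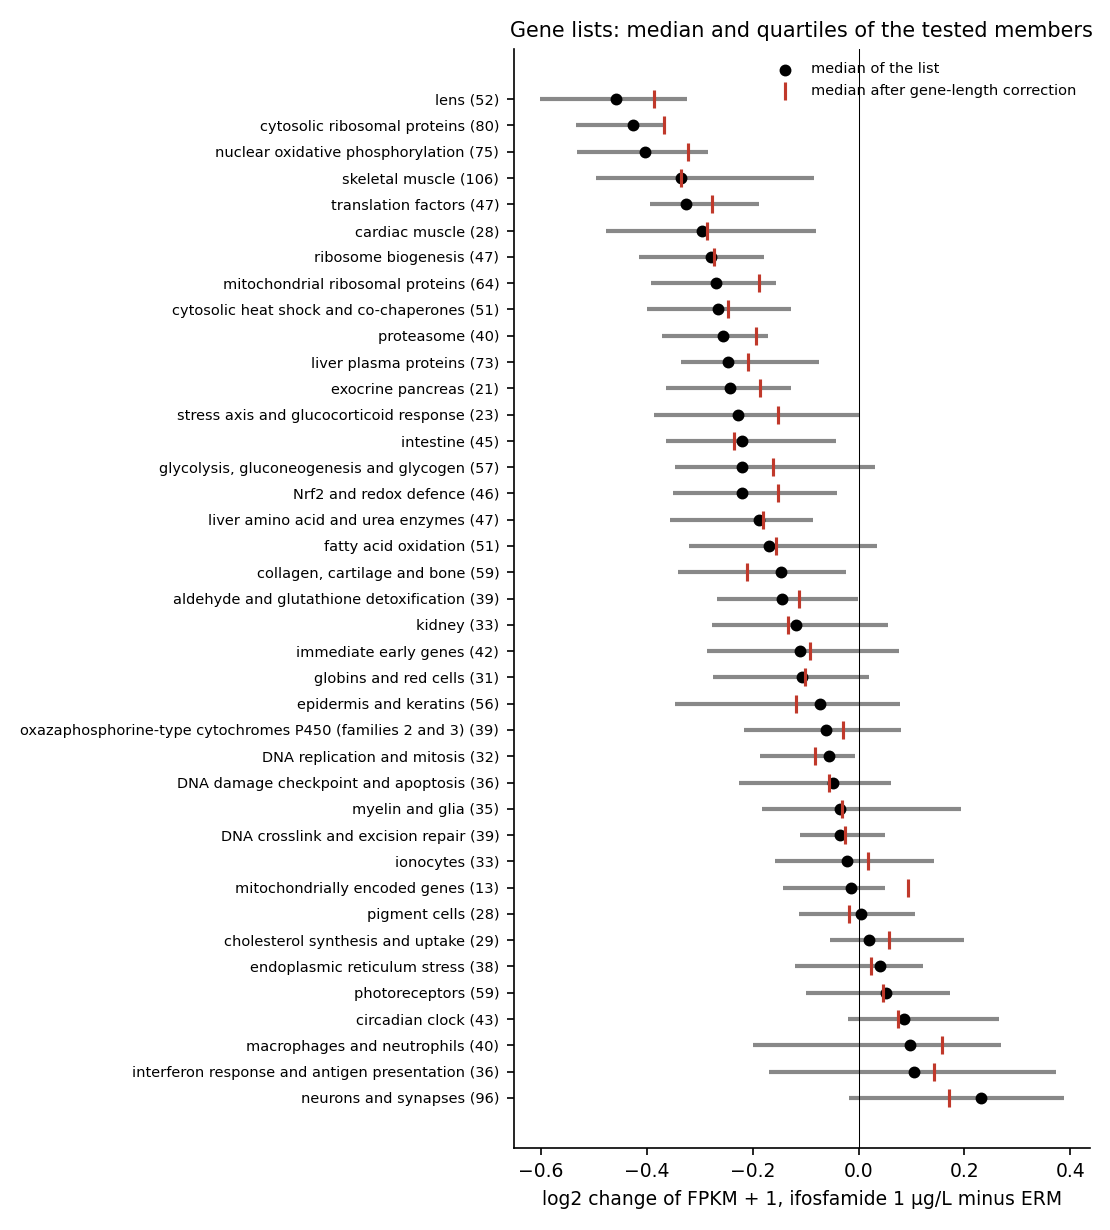
Median log2 change of each of 39 gene lists, ifosfamide 1 µg/L minus ERM (dots), with the quartiles of its tested members (grey bars), the median after correction for gene length (red ticks) and the number of tested members in brackets. Lens, cytosolic ribosomal and oxidative phosphorylation genes lie lowest at -0.46, -0.43 and -0.40, and neurons and synapses lie highest at 0.23.

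Of 106 tested skeletal muscle genes 92 had negative changes, and 29 were lower (27.4%, against 4.78% of all gene models) and 0 higher without overlap. The median was -0.33, -0.34 after the length correction and -0.17 with scaling to total reads. By library it was lowest in ifosfamide B at -0.67, against -0.28 to -0.18 in the other ifosfamide libraries and -0.10 to 0.09 in ERM libraries. The most abundant, pvalb1, which codes for the calcium buffer parvalbumin of fast fibres, averaged 8730 ± 1730 FPKM in ifosfamide and 11424 ± 1452 FPKM in ERM larvae, and actc1b averaged 7594 ± 1674 FPKM in ifosfamide and 10695 ± 1820 FPKM in ERM larvae, both with overlap. The myosin-binding protein gene mybphb had 131, 110, 151 and 126 FPKM in ifosfamide libraries and 218, 175, 202 and 221 FPKM in ERM libraries. The lowest ERM library, B, was still above the highest ifosfamide library, C (log2 change -0.66, SE 0.13, limma adjusted p = 0.201). Of 28 cardiac genes 24 had negative changes, 8 were lower (28.6%) and 1 higher (3.57%) without overlap, and the median was -0.30, or -0.14 with scaling to total reads. The cardiac myosin light chain gene cmlc1 averaged 15.2 ± 3.39 FPKM in ifosfamide and 26.3 ± 1.03 FPKM in ERM larvae and tcap, which caps titin at the Z disc, 9.82 ± 2.12 FPKM in ifosfamide and 17.4 ± 2.64 FPKM in ERM larvae. Collagen, cartilage and bone genes had negative changes in 45 of 59 tested and 0 without overlap in either direction. Their median was -0.15, -0.21 after the length correction and -0.02 with scaling to total reads. It was -0.26 without ERM B, -0.23 without ifosfamide D and -0.30 when only gene models with a mean of at least 5 FPKM were kept. Under that filter the median over all gene models was -0.08. The type I collagen gene col1a1b averaged 60.4 ± 6.38 FPKM in ifosfamide and 82.4 ± 16.04 FPKM in ERM larvae and the cartilage collagen col2a1b 21.7 ± 3.23 FPKM in ifosfamide and 30 ± 4.41 FPKM in ERM larvae.

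In liver and fuel metabolism, the methyl donor enzyme bhmt (ENSDARG00000013430, chromosome 21), which remethylates homocysteine with betaine, had 635, 728, 642 and 491 FPKM in ifosfamide libraries and 1134, 969, 1028 and 1089 FPKM in ERM libraries. Its groups were far apart, with a log2 change of -0.77 (SE 0.14, 95% interval from -1.09 to -0.45, limma adjusted p = 0.197). The histidine breakdown enzyme ftcd averaged 26.8 ± 4.14 FPKM in ifosfamide and 43.4 ± 5.61 FPKM in ERM larvae without overlap. Of 47 amino acid and urea enzymes 41 had negative changes and 9 were lower (19.1%, against 4.78% of all gene models) and 0 higher without overlap, with a median of -0.19, or -0.05 with scaling to total reads. Gluconeogenesis was represented by pck1 (ENSDARG00000013522, chromosome 6, 60055168 to 60062097), the gene of its rate-limiting carboxykinase. It had 440, 411, 418 and 417 FPKM in ifosfamide libraries and 814, 547, 641 and 751 FPKM in ERM libraries. The ifosfamide values were nearly equal, and all lay below ERM B, the lowest of its group (log2 change -0.69, SE 0.14, limma adjusted p = 0.210). The liver pyruvate kinase gene pklr averaged 290 ± 47.0 FPKM in ifosfamide and 474 ± 67.1 FPKM in ERM larvae without overlap. Glycolysis, gluconeogenesis and glycogen genes had negative changes in 41 of 57 tested, with 10 lower (17.5%) and 0 higher without overlap and a median of -0.22, or -0.06 with scaling to total reads.

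The mitochondrial ATP carrier gene slc25a25a (ENSDARG00000010572, chromosome 8) had 21.3, 18.8, 19.7 and 18.0 FPKM in ifosfamide libraries and 29.3, 27.0, 31.4 and 33.2 FPKM in ERM libraries, and the log2 change came to -0.61 (SE 0.11, limma adjusted p = 0.197). Like pck1 it was called under array weights and without ERM B, and both belong to the 23 tested genes of the stress axis and glucocorticoid list, of which 3 were lower (13%, against 4.78% of all gene models) and 1 higher (4.35%, against 2.19%) without overlap. This list's median was -0.23, -0.15 after the length correction and -0.07 with scaling to total reads. It was -0.11 with a block for the library letter and -0.14 without ERM E. Plasma proteins made by the liver had negative changes in 61 of 73 tested genes, with 10 lower (13.7%) and 0 higher without overlap and a median of -0.25, or -0.09 with scaling to total reads. The main apolipoproteins of high-density lipoprotein, apoa1a and apoa1b, did not overlap, with apoa1a at 225 ± 43.4 FPKM in ifosfamide and 347 ± 42.6 FPKM in ERM larvae and apoa1b at 354 ± 71.6 FPKM in ifosfamide and 558 ± 90.01 FPKM in ERM larvae. The liver fatty acid binding protein gene fabp10a overlapped, at 974, 714, 668 and 313 FPKM in ifosfamide libraries and 956, 994, 845 and 940 FPKM in ERM libraries. Ifosfamide D was by far the lowest and ifosfamide A lay among the ERM libraries. Of 51 fatty acid oxidation genes 7 were lower (13.7%, against 4.78% of all gene models) and 1 higher (1.96%) without overlap. Their median was -0.17, and -0.0075 with scaling to total reads. When only gene models with a mean of at least 5 FPKM were kept it was -0.26, against -0.08 over all gene models so filtered. The uncoupling protein gene ucp1 averaged 930 ± 114 FPKM in ifosfamide and 1194 ± 70.8 FPKM in ERM larvae. Cholesterol synthesis and uptake genes were split, with 17 positive and 12 negative changes of 29. Without overlap 1 was lower (3.45%, against 4.78% of all gene models) and 0 were higher. The sterol carrier gene stard4 averaged 6.66 ± 1.198 FPKM in ifosfamide and 10.06 ± 1.35 FPKM in ERM larvae without overlap, and the lipogenic regulator srebf1 22.6 ± 7.37 FPKM in ifosfamide and 15.03 ± 4.78 FPKM in ERM larvae with overlap.

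Among digestive, renal and blood genes, the exocrine pancreas list had 18 negative changes of 21 tested, 0 without overlap in either direction and a median of -0.24. The median was -0.08 with scaling to total reads, -0.13 with a block for the library letter and -0.11 without ifosfamide D. By library the groups overlapped, with -0.13, 0.10, -0.32 and -0.61 in ifosfamide libraries A to D and 0.11, -0.18, 0.05 and -0.01 in ERM libraries A, B, C and E. The trypsin gene prss1 averaged 5220 ± 1180 FPKM in ifosfamide and 6983 ± 520.3 FPKM in ERM larvae. Intestinal genes had 38 negative changes of 45, 8 lower (17.8%, against 4.78% of all gene models) and 0 higher without overlap, and a median of -0.22, or -0.07 with scaling to total reads. The amino acid transporter gene slc6a18 averaged 4.305 ± 0.608 FPKM in ifosfamide and 6.76 ± 0.514 FPKM in ERM larvae without overlap. Of 33 kidney genes 4 were lower (12.1%) and 1 higher (3.03%) without overlap, and the median was -0.12, or 0.03 with scaling to total reads and -0.08 without ifosfamide B. The tubular glucose transporter slc5a2 had 2.54, 2.51, 2.37 and 1.88 FPKM in ifosfamide libraries and 4.29, 3.45, 3.95 and 4.13 FPKM in ERM libraries. Its groups did not overlap, and the log2 change came to -0.58 (SE 0.12, limma adjusted p = 0.210). The organic anion transporter slc22a7a averaged 2.02 ± 0.203 FPKM in ifosfamide and 3.05 ± 0.513 FPKM in ERM larvae, also without overlap.

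Globin transcripts, which red cells carry, included hbae3 (ENSDARG00000079305, chromosome 3), at 66.2, 40.2, 83.0 and 54.5 FPKM in ifosfamide libraries and 89.7, 138, 136 and 151 FPKM in ERM libraries. The gap between ifosfamide C and ERM A was narrow, and the log2 change was -1.09 (SE 0.23, limma adjusted p = 0.210). The beta globin gene hbbe1.1 averaged 105 ± 27.12 FPKM in ifosfamide and 183 ± 40.2 FPKM in ERM larvae without overlap. These globin copies resemble each other, and reads may be shared among them. The red cell list as a whole had 22 negative changes of 31, 4 lower (12.9%, against 4.78% of all gene models) and 1 higher (3.23%, against 2.19%) without overlap. Its median was -0.11, or 0.01 with scaling to total reads and -0.16 without ERM B.

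Skin genes divided. Of 56 tested epidermis and keratin genes 35 had negative and 21 positive changes, 9 were lower (16.1%, against 4.78% of all gene models) and 3 higher (5.36%, against 2.19%) without overlap. The median was -0.07, or 0.10 with scaling to total reads and 0.01 without ifosfamide D. The keratin gene krt15 had 17.2, 16.7, 19.6 and 13.9 FPKM in ifosfamide libraries and 40.8, 21.3, 26.9 and 41.5 FPKM in ERM libraries. ERM B came closest to the ifosfamide libraries (log2 change -0.87, SE 0.21, limma adjusted p = 0.248). The annexin A2 gene anxa2a averaged 32.0 ± 4.87 FPKM in ifosfamide and 48.6 ± 7.49 FPKM in ERM larvae without overlap. Its partner s100a10a (ENSDARG00000037425, chromosome 19), which binds annexin A2, had 94.1, 74.8, 104 and 73.7 FPKM in ifosfamide libraries and 162, 132, 164 and 160 FPKM in ERM libraries. Its groups were widely separated, and the log2 change came to -0.83 (SE 0.14, limma adjusted p = 0.197). The serpin gene serpinb1l3 averaged 96.7 ± 13.9 FPKM in ifosfamide and 182 ± 32.7 FPKM in ERM larvae (log2 change -0.89, SE 0.16, limma adjusted p = 0.197). Both were called under array weights and without ERM B. Neither s100a10a nor serpinb1l3 is in the epidermis and keratin list, and both were named for their small p. Ionocyte genes were even, with 16 positive and 17 negative changes and a median of -0.02, or 0.13 with scaling to total reads. The sodium-proton exchanger gene slc9a3.1 averaged 0.857 ± 0.192 FPKM in ifosfamide and 1.64 ± 0.416 FPKM in ERM larvae and the carbonic anhydrase gene ca2 8.36 ± 0.416 FPKM in ifosfamide and 6.58 ± 1.01 FPKM in ERM larvae.

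**Figure D5:**
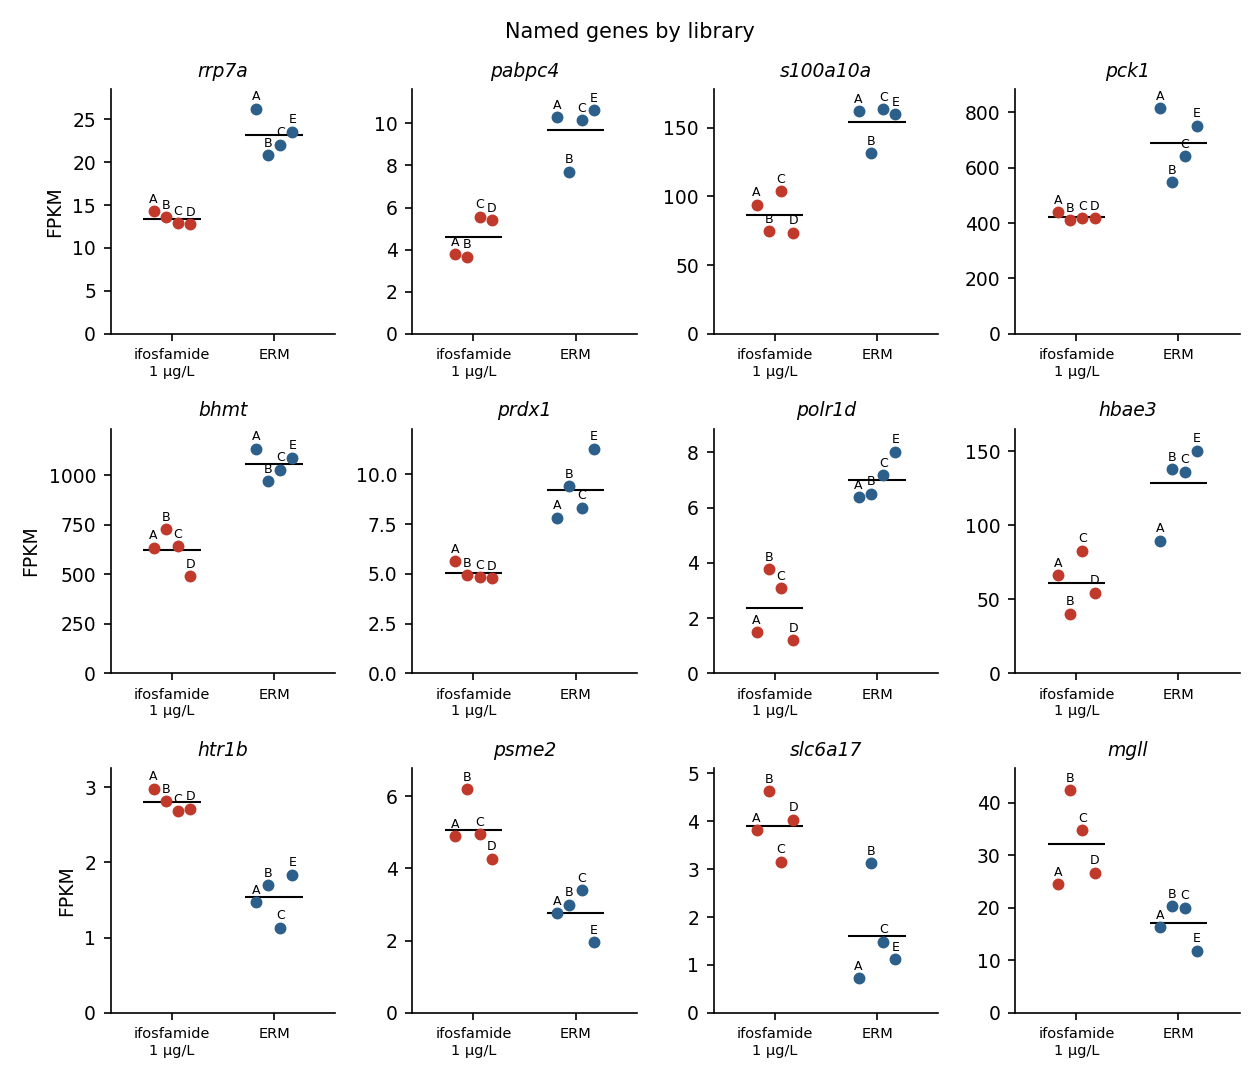
FPKM of 12 named genes in each library (linear scale from 0, letters name the libraries), with ifosfamide 1 µg/L on the left and ERM on the right and a bar at each group's mean. The first 8 genes were lower and the last 4 higher in all 4 ifosfamide libraries than in any ERM library, and in slc6a17 ERM B at 3.12 FPKM lay close to ifosfamide C at 3.16 FPKM.

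Of 96 tested neuron and synapse genes 70 had positive changes, with a median of 0.23, 0.17 after the length correction and 0.37 with scaling to total reads. Only 2 were higher without overlap, or about the background of 2.19%, and 3 were lower (3.12%, against 4.78% of all gene models). By library the list's median deviation from the ERM mean was 0.16, 0.22, 0.20 and 0.29 in ifosfamide libraries A to D and -0.10, 0.28, -0.05 and -0.12 in ERM libraries A, B, C and E. ERM B thus lay among the ifosfamide libraries, and without it the list's median was 0.29. The GABA synthesis gene gad1b averaged 46.7 ± 5.42 FPKM in ifosfamide and 35.4 ± 5.92 FPKM in ERM larvae and the NMDA receptor subunit grin1b 78.9 ± 9.47 FPKM in ifosfamide and 63.7 ± 9.35 FPKM in ERM larvae, both with overlap. The neurofilament gene neflb went the other way, at 4.06 ± 0.408 FPKM in ifosfamide and 5.63 ± 0.660 FPKM in ERM larvae without overlap.

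The serotonin receptor gene htr1b (ENSDARG00000053987, chromosome 17) had 2.98, 2.82, 2.68 and 2.71 FPKM in ifosfamide libraries and 1.47, 1.70, 1.13 and 1.84 FPKM in ERM libraries. All ifosfamide libraries lay above all ERM libraries, on 45 to 58 recovered reads against 21 to 30 in ERM libraries, with a log2 change of 0.59 (SE 0.13, 95% interval from 0.30 to 0.88, limma adjusted p = 0.213). The synaptic vesicle amino acid transporter slc6a17 had 3.81, 4.63, 3.16 and 4.03 FPKM in ifosfamide libraries and 0.723, 3.12, 1.48 and 1.12 FPKM in ERM libraries. ERM B was the highest of its group, and the log2 change was 0.98 (SE 0.24, limma adjusted p = 0.248), with a call only when ERM B was left out. The monoglyceride lipase gene mgll, whose product degrades an endocannabinoid, averaged 32.1 ± 8.19 FPKM in ifosfamide and 17.1 ± 3.96 FPKM in ERM larvae (log2 change 0.87, SE 0.21, limma adjusted p = 0.248). The genes htr1b, slc6a17 and mgll were named for their small p rather than picked from the neuron list. In the myelin and glia list (35 tested, median -0.04, or 0.10 with scaling to total reads), the oligodendrocyte regulator myrf averaged 1.63 ± 0.195 FPKM in ifosfamide and 0.847 ± 0.209 FPKM in ERM larvae and the Schwann cell regulator egr2b 3.72 ± 0.382 FPKM in ifosfamide and 5.13 ± 0.252 FPKM in ERM larvae. Both were without overlap and in opposite directions. Of the myelin and glia list 1 was higher (2.86%, against 2.19% of all gene models) and 1 lower (2.86%, against 4.78%) without overlap. The ERM mean of myrf was below the limit of 1 FPKM, so myrf entered the comparison only through the ifosfamide libraries.

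Immune genes were mixed. The proteasome activator psme2 (ENSDARG00000033144, chromosome 12), which interferon induces, had 4.89, 6.18, 4.95 and 4.27 FPKM in ifosfamide libraries and 2.75, 2.997, 3.39 and 1.95 FPKM in ERM libraries. The groups did not overlap (log2 change 0.69, SE 0.15, 95% interval from 0.35 to 1.03, limma adjusted p = 0.222). The beta-2 microglobulin gene b2ml averaged 92.8 ± 16.4 FPKM in ifosfamide and 63.3 ± 4.63 FPKM in ERM larvae and the class I gene mhc1zba 86.3 ± 10.4 FPKM in ifosfamide and 61.7 ± 6.43 FPKM in ERM larvae, both without overlap. Against these, irf1b (ENSDARG00000110357, 1 of 2 gene models of that symbol), an interferon regulatory factor, averaged 25.3 ± 3.96 FPKM in ifosfamide and 38.9 ± 5.17 FPKM in ERM larvae, lower without overlap. The interferon and antigen presentation list had 23 positive and 13 negative changes of 36, with 3 higher (8.33%, against 2.19% of all gene models) and 1 lower (2.78%, against 4.78%) without overlap. Its median was 0.10, 0.23 with scaling to total reads, and 0.06 without ERM B or without ifosfamide C. When only gene models with a mean of at least 5 FPKM were kept it was -0.20, against -0.08 over all gene models so filtered. Of 40 macrophage and neutrophil genes 25 were positive, 2 higher (5%) and 1 lower (2.5%) without overlap (median 0.10, or 0.24 with scaling to total reads and 0.05 without ERM B). The progranulin gene grna averaged 3.45 ± 0.874 FPKM in ifosfamide and 2.105 ± 0.246 FPKM in ERM larvae, and the neutrophil attractant cxcl8a 0.837 ± 0.237 FPKM in ifosfamide and 1.95 ± 0.641 FPKM in ERM larvae. For cxcl8a these rest on only 6 to 13 recovered reads in ifosfamide libraries and 12 to 29 in ERM libraries.

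Of 52 tested crystallin and lens genes 49 had negative changes with a median of -0.46, yet 0 were without overlap in either direction. Summed over the list, lens transcripts came to 13304, 2463, 3936 and 6010 FPKM in ifosfamide larvae A to D, against 12185, 5130, 7591 and 8204 FPKM in ERM larvae A, B, C and E. The library lettered A was the highest and that lettered B the lowest in both groups. The other groups had another order. At ifosfamide 100 µg/L A was the lowest (3790 FPKM) and D the highest (8989 FPKM), and at each citalopram dose C was the highest and D the lowest. The beta crystallin gene crybb1 was at 1330, 211, 143 and 404 FPKM in ifosfamide libraries and at 1496, 357, 299 and 589 FPKM in ERM libraries, with A highest and C lowest in both, while the gamma crystallin gene crygm2d20 averaged 30.8 ± 25.6 FPKM in ifosfamide and 96.5 ± 58.2 FPKM in ERM larvae. Without ifosfamide A the list's median was -0.86, without ifosfamide B -0.10 and without ERM A -0.27, and with scaling to total reads it was -0.30. Photoreceptor genes had 33 positive and 26 negative changes of 59, 0 without overlap, and a median of 0.05 that was -0.22 without ERM B and 0.29 without ifosfamide B. Both libraries lettered B had the lowest summed photoreceptor FPKM of their group, at 1106 in ifosfamide larvae and 1101 in ERM larvae.

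Of the remaining lists, endoplasmic reticulum stress genes had 20 positive and 18 negative changes, and 1 was higher (2.63%) and 2 lower (5.26%) without overlap, close to the 2.19% and 4.78% of all gene models. In it the pseudokinase trib3 averaged 43.4 ± 3.57 FPKM in ifosfamide and 58.8 ± 9.46 FPKM in ERM larvae and the degradation factor edem1 10.8 ± 0.906 FPKM in ifosfamide and 8.26 ± 1.03 FPKM in ERM larvae, both without overlap, while the transcription factor atf4a averaged 223 ± 9.28 FPKM in ifosfamide and 291 ± 53.3 FPKM in ERM larvae. Circadian clock genes had 30 positive changes of 43, 0 without overlap and a median of 0.09, with arntl1b, a core activator of the clock, at 7.29 ± 0.946 FPKM in ifosfamide and 5.103 ± 1.38 FPKM in ERM larvae. Pigment cell genes were split 14 to 14, and 2 were higher (7.14%, against 2.19% of all gene models) and 0 lower without overlap. Among them the endothelin receptor ednrba averaged 2.59 ± 0.719 FPKM in ifosfamide and 1.44 ± 0.327 FPKM in ERM larvae without overlap. Immediate early genes had 17 positive and 25 negative changes of 42, 3 lower (7.14%, against 4.78% of all gene models) and 0 higher without overlap. Their median was -0.11, 0.01 with scaling to total reads, 0.02 with a block for the library letter and -0.02 without ERM E or without ifosfamide D.

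Further genes outside the lists, with the smallest p among those without overlap, included the following. Higher in ifosfamide larvae were rab27a, a GTPase of secretory vesicle docking, at 5.85 ± 0.638 FPKM in ifosfamide and 3.66 ± 0.401 FPKM in ERM larvae (log2 change 0.56, SE 0.12, limma adjusted p = 0.213), and rab8a, a GTPase of vesicle traffic, at 3.84 ± 0.678 FPKM in ifosfamide and 2.05 ± 0.672 FPKM in ERM larvae. The same held for znf385b, muc13a (a membrane mucin), prdm2a, b3gnt7, ubtd1b and bhlha15, a transcription factor of secretory cells. Their log2 changes ran from 0.52 to 0.71, with limma adjusted p from 0.237 to 0.248. Of these, muc13a, ubtd1b and bhlha15 averaged 2.01, 1.88 and 1.61 FPKM in ifosfamide and 0.812, 0.887 and 0.693 FPKM in ERM larvae. With ERM means below the limit of 1 FPKM, these genes entered the comparison only through the ifosfamide libraries. For bhlha15 the values rest on 15 to 32 recovered reads in ifosfamide libraries and 9 to 10 in ERM libraries. Lower were mfsd4ab, at 6.09 ± 0.418 FPKM in ifosfamide and 9.47 ± 0.160 FPKM in ERM larvae, tspan34, a tetraspanin, at 8.32 ± 0.712 FPKM in ifosfamide and 13.9 ± 1.89 FPKM in ERM larvae, dhdhl at 42.9 ± 1.45 FPKM in ifosfamide and 66.5 ± 8.58 FPKM in ERM larvae, and myg1 at 35.0 ± 4.84 FPKM in ifosfamide and 54.8 ± 2.76 FPKM in ERM larvae. Their limma adjusted p was 0.197 in each.

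The smallest p of all belonged to si:ch73-18b11.2 (ENSDARG00000094978, chromosome 20, 2281933 to 2284402), a protein-coding gene model named here after its values were seen. It had 5.96, 5.92, 6.35 and 5.51 FPKM in ifosfamide libraries and 12.04, 10.7, 13.6 and 11.96 FPKM in ERM libraries. The ifosfamide libraries had little spread and lay far below every ERM library (log2 change -0.91, SE 0.11, 95% interval from -1.15 to -0.67, limma adjusted p = 0.123). It was called when only gene models of at least 5 FPKM were tested, under array weights and without ERM B. Some of the smallest p rest on very few reads. The microRNA gene model mir199-3a, 87 bases long, had 0 to 1 recovered reads per ifosfamide library and 2 to 5 per ERM library (log2 change -1.87, limma adjusted p = 0.163). The snoRNA gene model RF00133 (ENSDARG00000081926) had 0 to 1 reads in ifosfamide libraries and 2 to 3 in ERM libraries, and it was the single call without ifosfamide A.

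Ifosfamide at 100 µg/L has the same 4 ERM libraries as its reference, so the doses were also set against each other directly, without ERM. Of 19988 gene models tested over those 8 libraries after the same filter, 0 were called (0%, smallest limma adjusted p = 1). An unadjusted p under 0.05 was reached by 330 (1.65%), and 121 (0.605%) were lower and 107 (0.535%) higher at 1 µg/L without overlap. Against ERM, list medians at 100 µg/L were -0.33 for cytosolic ribosomal, -0.28 for oxidative phosphorylation and 0.22 for neuron and synapse genes. At 1 µg/L these medians were -0.43, -0.40 and 0.23. By library the ribosomal median deviation from the ERM mean was -0.53, 0.01, -0.40 and -0.41 at 100 µg/L (A to D). Over the libraries at citalopram 1000 µg/L it ran from -0.83 to 1.35. At 100 µg/L hsp70l averaged 2.18 ± 1.057 FPKM and hsp90aa1.2 17.6 ± 0.907 FPKM, between the means at 1 µg/L and in ERM, and the log2 differences, 1 minus 100 µg/L, were -0.61 (95% interval from -1.15 to -0.07) and -0.44 (95% interval from -0.67 to -0.21). For si:ch73-18b11.2 the mean at 100 µg/L was 9.03 ± 1.71 FPKM (difference -0.52, 95% interval from -0.82 to -0.22), and for rrp7a it was 17.5 ± 3.74 FPKM (difference -0.34, 95% interval from -0.67 to -0.01). Means at 100 µg/L were 435 ± 147 FPKM for pck1 (difference 0.01, 95% interval from -0.46 to 0.47) and 63.95 ± 12.99 FPKM for hbae3 (difference -0.09, 95% interval from -0.60 to 0.42). The 6 genes were described because of their low values in the same ifosfamide 1 µg/L libraries, and the limma adjusted p of the difference between doses was 1 for each. Among the other genes of the 12 of smallest p lower than ERM, the interval left out 0 only for tspan34 (-0.81 to -0.04). It held 0 for prdx1 (-0.39 to 0.10), pabpc4, s100a10a, mfsd4ab, slc25a25a, polr1d, serpinb1l3, myg1 and dhdhl, and mir199-3a was not tested between doses.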

How the data were processed

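RNA from zebrafish larvae had been extracted with TRIzol, and poly(A)-selected, strand-specific libraries were sequenced, per the labels' protocols. The authors deposited 1 table of FPKM values per gene model for 20 libraries. GRCz11, DESeq2, featureCounts, HISAT2 and fastp appear, per the submitters' processing notes; versions and roles are not given in the sources used here. Each deposited FPKM value was multiplied by gene length and divided by the smallest such product above 0 in its library, taken as 1 read. This gave whole reads in 100% of 588154 values above 0 (within 0.01). Median-of-ratios size factors of these reads matched the scaling of all 20 libraries within 1e-06. These recovered reads give the depth per library, 11124293 to 13897657 in the 8 libraries compared.

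Gene models whose mean FPKM reached 1 were tested on log2(FPKM + 1) with limma 3.58.1 (R 4.3.3, intensity trend, 6 residual degrees of freedom), two-sided, with Benjamini-Hochberg adjustment at 0.05. Fold changes are on this scale, which understates those of low genes. Tables were prepared with Python 3.11.15, pandas 2.3.3 and numpy 2.4.6. The fit was tested on simulated data. Means are given with their SD over 4 libraries, and intervals are limma's 95% intervals.

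Members and 39 gene lists were chosen with earlier results of these data known. Named genes were the 12 of smallest p without overlap in each direction with a regular symbol, of each list the 3 most abundant members and the 2 of smallest p, and a fixed set of drug and stress genes; only some of these are described, and some genes are not reported here. Named outside that rule, after their values were seen, were hsp70.1, hsp70.2, si:ch73-18b11.2 and RF00133.

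The labels do not say that library letters mark a shared batch. Deviations from group means correlated between libraries of the same letter by 0.162 for A, 0.392 for B and 0.113 for C. Ifosfamide A and C correlated as much with ERM E, by 0.164 and 0.145, so only B stood out. An alternative fit treated the letters as pairing 3 libraries per group. Other alternatives changed the pseudocount, filter, scaling, test, libraries in the model and weights, or left out each library. A correction for gene length and leaving out both libraries lettered B were added after seeing the data.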

Additional observations from a re-analysis of the deposited data

Results flagged for a closer look

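Of 224 groups of 4 libraries checked over the genes described, 9 held 1 library far from the other 3 by Dixon's ratio at its 95% critical value, and chance flags about 1 in 20 groups. In ifosfamide larvae at 1 µg/L, trib3 was at 38.12 FPKM in library B, against 44.74 to 45.66 FPKM in the other libraries. Gene models with few reads were RF00133, at 0.9602 FPKM in library A and 0 in the others, and mir199-3a, at 0.9066 FPKM in library C and 0 in the others.

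In ERM larvae, library B was the low one in 3 genes. It had 131.5 FPKM of s100a10a (159.9 to 163.6 FPKM in the others), 7.714 FPKM of pabpc4 (10.14 to 10.63 FPKM) and 50.71 FPKM of myg1 (55.95 to 56.65 FPKM). High values were 13.05 FPKM of hmox1a in library A (5.923 to 7.002 FPKM in the others), 183.7 FPKM of rps27a in library C (102.6 to 113 FPKM) and 7.532 FPKM of slc6a18 in library E (6.471 to 6.579 FPKM).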

How the results depend on the processing

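Against ERM, 0 gene models were called in the comparison as reported. Over 20 alternatives the count was 1 with a minimum mean of 5 FPKM, 107 with array weights and 0 to 106 when 1 library was left out (106 without ERM B, 1 without ifosfamide A), and 0 under the rest, with limma voom on recovered reads giving 3050 at an unadjusted p under 0.05. The replicate block called 0 (2583 at an unadjusted p under 0.05) and changed no call. Against 100 µg/L the count was 0 to 1 when 1 library was left out (1 without ifosfamide 100 µg/L A), and 0 otherwise. There deviations of libraries of the same letter correlated by -0.244 to 0.076, and the replicate block called 0.

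Gene models higher without overlap numbered 664 with no filter, 144 with a mean of at least 5 FPKM, 1294 with scaling to total reads and 564 to 2508 when 1 library was left out (2508 without ERM B). Those lower without overlap numbered 354 with scaling to total reads and 1110 to 2184 when 1 library was left out (2184 without ERM B). With fewer libraries, groups overlap less often by construction.

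Of 112 genes described, 2 changed sign: with scaling to total reads mdm2 (0.0804) and fancd2 (0.0649), and without ERM C fancd2 (0.0017). When 1 library was left out, fancd2 ranged from -0.0915 to 0.0017. The cause was not tested. Of 39 list medians, 15 changed sign under at least 1 alternative. Low-read genes such as mir199-3a and RF00133 are limited by depth.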
